A study of Mus musculus with 3 samples.

Results

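Interferon-stimulated genes are the genes that cells switch on when type I interferon reaches its receptor. The list examined here held 40 such genes, chosen by name, and 38 of them had a row among the 32285 genes of the deposited matrices. Mx1 and Mx2 were not analysed here. The 38 genes were described in single leukocytes of the mouse aorta, gene by gene, by cell class, cell subset and library. The question put to the data was whether the higher level after western diet lay in all cells or in a few.

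There were 3 libraries, with 1 library per group, all from mice of the ApoE-/- genotype on the C57BL/6J background. ApoE-/- mice lack apolipoprotein E, a lipoprotein ligand, and develop atherosclerosis. The control group is labelled only as control, the HHcy group drank water with homocysteine at 1.8 g/L for 4 weeks (hyperhomocysteinemia, a raised plasma homocysteine), and the WD group ate a western diet for 4 weeks. Live nucleated CD45+ cells were sorted from whole aorta with its adventitia and run on the Chromium Single Cell 3' v3 chemistry. The number of mice behind each library, their sex and their age are not given in the labels. With 1 library per group no difference between groups could be tested. Each interval below is a 95% interval that covers counting error only, not the spread between animals.

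After filters and removal of barcodes with markers of more than 1 lineage, 5536 control, 6612 HHcy and 5465 WD cells remained, with a median of 7789, 6899.5 and 8291 UMIs (unique molecules). Apoe, the gene that all 3 groups should lack, stood at 16.3 CPM (UMIs of the gene per 1000000 UMIs) in the control library, 374 in the one labelled HHcy and 19.3 in the WD library. That library therefore goes against its label in this gene, and it is called the library labelled HHcy throughout; where the 3' reads lie relative to the deleted part of Apoe is not given in the sources used here. Ptprc, which encodes CD45, had a UMI in 93.6%, 93.7% and 90.9% of the cells. The libraries shared 38 of 17573 cell barcodes. Barcodes with markers of several lineages made up 8.31%, 18.9% and 18.6% of the cells that passed the filters.

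Cells were grouped by clusters built without the 38 genes and named by marker genes. There were 2189 control, 3626 HHcy and 1227 WD B cell-like cells, and 1899, 1187 and 2590 macrophage/monocyte-like cells. Neutrophil-like cells numbered 220, 475 and 312, conventional dendritic cell-like cells 495, 310 and 438, and T cell-like cells 190, 245 and 182. The larger T cell-like cluster also carried cytotoxic genes shared with NK cells, such as Gzma and Nkg7. In the T cell-like class the NK cell markers summed to 5388, 3602 and 5320 CPM in the control, HHcy-labelled and WD libraries. Its T cell markers summed to 3503, 4520 and 3889 CPM. The T cell-like values below may therefore be those of a mixture of T and NK cells, whose part in them was not tested. Clusters left unnamed or set aside are given after the sub-clusters. Plasmacytoid dendritic cell-like cells, a class known for making type I interferon, were too few to compare, with 3, 38 and 5 cells.

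As background, type I interferons such as interferon beta bind the receptor made of Ifnar1 and Ifnar2. The kinases Jak1 and Tyk2 then lead to assembly of the factor ISGF3, whose subunits include Stat2 and Irf9, and ISGF3 binds the interferon-stimulated response element in the promoters of target genes. The targets include blockers of viral translation and budding, sensors of foreign nucleic acid, and the factor Irf7, which drives further interferon production. In atherosclerotic aorta, macrophages and other leukocytes are known to carry such a programme.

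The core of the response element is 2 GAAA blocks 2 bases apart (GAAA, any 2 bases, GAAA; both strands were searched, and on the minus strand it reads TTTC, any 2 bases, TTTC). RefSeq promoter windows on GRCm38.p6, from 250 bases before to 50 bases after the start site, were found for 30 of the 40 listed genes. The core was present in 18 of those 30 (60%), against 1079 of 27025 genes with a window (3.99%). A match is a description of letters in this window and not a site that these data measured.

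Of the IFIT genes, Ifit2 has a window with no match to the core and is not shown. The promoters of 6 genes with a match are shown, each ending at the last base before its RefSeq start site. They are printed 5′ to 3′ on the strand of the gene, with the matches to the core in capitals. They lie at chr19:34583329-34583528 on the plus strand (Ifit3), chr19:34607757-34607956 plus (Ifit3b), chr19:34640739-34640888 plus (Ifit1), chr4:156200819-156200968 minus (Isg15), chr12:26456453-26456602 minus (Rsad2) and chr8:71537473-71537622 minus (Bst2).
Ifit3: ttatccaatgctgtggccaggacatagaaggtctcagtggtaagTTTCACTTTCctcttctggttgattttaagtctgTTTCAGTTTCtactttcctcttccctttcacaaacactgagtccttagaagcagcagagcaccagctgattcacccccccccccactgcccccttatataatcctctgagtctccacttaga
Ifit3b: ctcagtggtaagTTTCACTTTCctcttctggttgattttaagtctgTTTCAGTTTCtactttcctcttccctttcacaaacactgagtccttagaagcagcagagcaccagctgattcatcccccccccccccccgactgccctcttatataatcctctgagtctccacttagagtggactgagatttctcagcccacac
Ifit1: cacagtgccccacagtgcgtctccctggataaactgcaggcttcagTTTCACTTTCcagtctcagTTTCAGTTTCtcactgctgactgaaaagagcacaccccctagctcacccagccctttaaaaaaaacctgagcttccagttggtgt
Isg15: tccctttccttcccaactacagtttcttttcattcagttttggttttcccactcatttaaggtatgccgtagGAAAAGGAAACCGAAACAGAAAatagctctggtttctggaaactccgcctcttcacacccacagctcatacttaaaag
Rsad2: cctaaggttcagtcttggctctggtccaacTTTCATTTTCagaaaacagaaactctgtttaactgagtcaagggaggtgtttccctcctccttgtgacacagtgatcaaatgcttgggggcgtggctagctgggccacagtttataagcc
Bst2: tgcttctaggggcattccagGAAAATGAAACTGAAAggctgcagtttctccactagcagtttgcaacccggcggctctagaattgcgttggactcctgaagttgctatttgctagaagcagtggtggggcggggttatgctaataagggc
Ifit3, Ifit3b and Ifit1 each hold 2 cores on the minus strand, beginning 156 and 122 bases, 188 and 154 bases, and 104 and 85 bases before the start site. The 3 matches of Isg15 overlap, as do the 2 of Bst2, and Rsad2 holds 1. Ifit3 and Ifit3b are near copies: 1663 of 1697 aligned transcript bases (98.0%) and 259 of 260 aligned window bases (99.6%) are identical, so 3' reads of the pair may have been split between them and their separate values are uncertain. PYHIN, Oas and Schlafen genes also have close relatives; the identity among them was not measured here, and their separate values are uncertain too. The median log2 ratio of WD to control in B cell-like cells was 0.69 over the 18 genes with a core and 0.68 over the 12 without, and in macrophage/monocyte-like cells 0.32 and 0.34. The medians with and without a core were 0.40 and 0.34 in neutrophil-like, 0.63 and 0.71 in dendritic cell-like and 0.04 and 0.25 in T cell-like cells.

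In B cell-like cells the whole list was higher in the WD library. The median log2 ratio of WD to control over the 38 genes was 0.66 (interval of the median gene 0.23 to 1.12), against 0.02 over all genes with at least 30 UMIs over the 3 libraries. At least 1.5-fold higher were 22 of 38 and none was 1.5-fold lower, where the background over all genes was 6.00% higher and 4.00% lower. The interval of the ratio lay above 0 for 36 of the 38. The share of all genes with such an interval was not computed, in this or any other class. For the library labelled HHcy against the same control library the median was 0.15 (-0.22 to 0.53), with 5 of 38 at least 1.5-fold higher and none lower, where the background was 5.71% and 8.88%.

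Macrophage/monocyte-like cells started from a higher level and differed by less. Summed over the 38 genes the level was 5693 CPM in control, 5967 in HHcy-labelled and 7248 in WD cells, against 2090, 2386 and 3195 CPM in B cell-like cells. Their median log2 ratio of WD to control was 0.32 (0.24 to 0.40), with 10 of 38 at least 1.5-fold higher and none lower (background 5.74% and 4.87%), and 34 intervals lay above 0. For the library labelled HHcy the median was 0.09 (-0.05 to 0.24), with 2 of 38 higher and none lower (background 5.86% and 5.97%).

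Conventional dendritic cell-like cells resembled B cell-like cells in size, with a WD median of 0.68 (0.51 to 0.92) and 23 of 38 at least 1.5-fold higher (background 6.77% higher and 7.99% lower, none of the 38 lower). Neutrophil-like cells differed from the control in both libraries: the WD median was 0.40 (0.03 to 0.78), with 10 higher and 1 lower (background 7.33% and 14.7%), and the median for the library labelled HHcy was 0.50 (0.26 to 0.74), with 16 higher (background 5.40%). The all-gene medians of neutrophil-like cells were themselves at -0.08 and -0.24, and in the library labelled HHcy 1999 of 8007 genes were at least 1.5-fold lower. The counts in neutrophil-like cells depended on the processing: with barcodes of 2 lineages kept they were 19 for WD and 7 for the library labelled HHcy. In T cell-like cells the WD median was 0.21 (-0.76 to 1.19), with 8 of 37 higher (background 8.75%) and only 8 intervals above 0; the count was 21 with those barcodes kept and 2 of 24 at a finer clustering. Dendritic cell-like and T cell-like cells of the library labelled HHcy gave medians of 0.21 and -0.04, with 5 of 38 and 3 of 37 higher (background 7.53% and 6.75%) and 1 and 3 lower (background 5.88% and 13.1%).

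**Figure D1:**
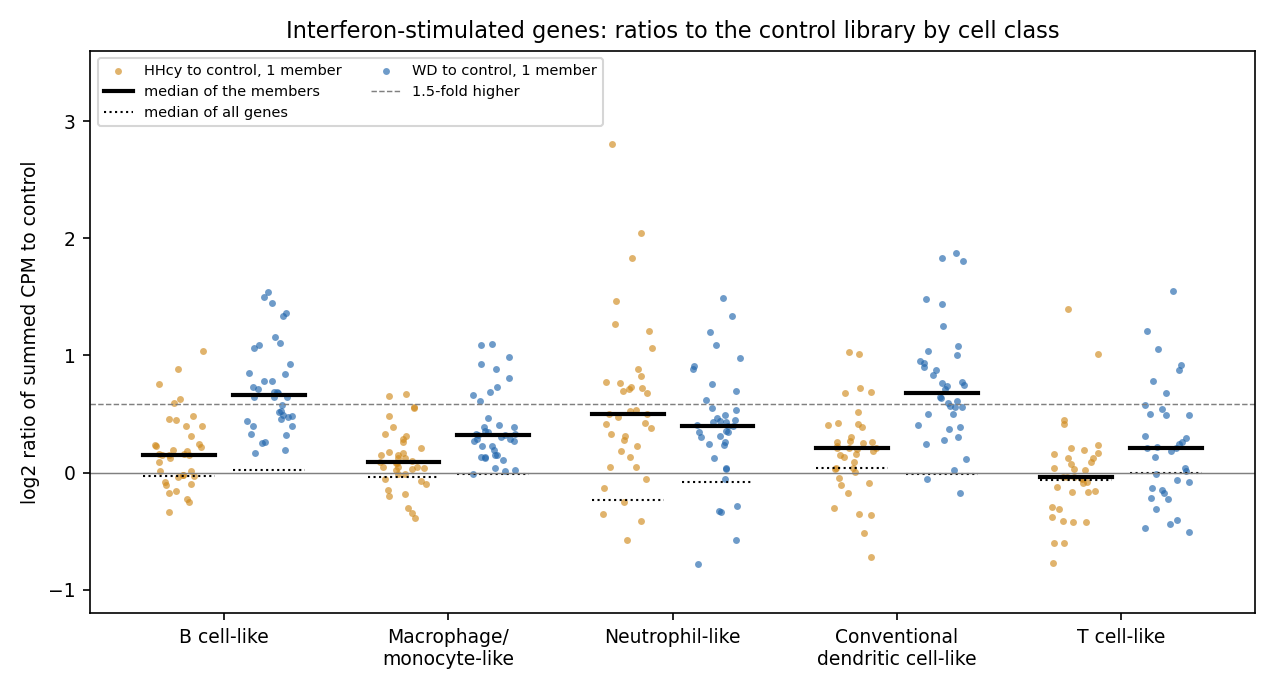
Each point is 1 gene of the list with at least 30 UMIs in the class; the y axis is the log2 ratio of summed CPM to the control library, for the library labelled HHcy (orange) and the WD library (blue), with the median of the list (thick bar) and of all genes (dotted). The WD median sits at 0.66 in B cell-like, 0.32 in macrophage/monocyte-like and 0.68 in dendritic cell-like cells; Ifi44 in T cell-like cells, at 0 UMIs in the control, is left out.

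The IFIT family, proteins that bind foreign RNA and hold back its translation, differed most in 4 of the 5 classes. All 4 measured members were at least 1.5-fold higher in the WD library in B cell-like, macrophage/monocyte-like, neutrophil-like and dendritic cell-like cells (background 6.00%, 5.74%, 7.33% and 6.77%). The near copies Ifit3 and Ifit3b are counted as 2 of these 4. The family medians were 1.43, 1.04, 1.21 and 1.64 on the log2 scale. In T cell-like cells Ifit1 and Ifit2 were at least 1.5-fold higher too (background 8.75%). Ifit3 was not higher there, at 9.87 CPM in control, 11.6 in HHcy-labelled and 9.33 in WD cells, and Ifit3b had under 30 UMIs. In B cell-like cells Ifit3 stood at 5.94 CPM in control, 9.17 in HHcy-labelled and 16.8 in WD cells (WD log2 ratio 1.5, 1.15 to 1.86). Its copy Ifit3b stood at 1.43, 1.96 and 4.18 CPM (1.54, 0.81 to 2.3). Both genes carry the pair of cores shown above, and the control library was the lowest of the 3 for both.

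In macrophage/monocyte-like cells Ifit3 stood at 28.4, 45.3 and 60.6 CPM in the control, HHcy-labelled and WD libraries (WD 1.09, 0.95 to 1.24) and Ifit1 at 76.2, 112 and 151 CPM (0.99, 0.90 to 1.08). Ifit2 followed the same order at 48.0, 67.0 and 83.7 CPM (0.80, 0.69 to 0.92). For these genes the library labelled HHcy lay between the other two, with log2 ratios to the control of 0.67 for Ifit3, 0.55 for Ifit1 and 0.48 for Ifit2. In dendritic cell-like cells Ifit3 stood at 10.9, 15.6 and 38.6 CPM (WD 1.83, 1.48 to 2.19), and Ifit2 at 17.8, 14.4 and 49.5 CPM (1.48, 1.20 to 1.77).

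Viperin, encoded by Rsad2, makes a nucleotide that stops viral RNA synthesis, and Cmpk2 is its neighbouring kinase gene. Rsad2 in B cell-like cells stood at 9.23 CPM in control, 7.74 in HHcy-labelled and 25.2 in WD cells (WD 1.45, 1.16 to 1.73; HHcy -0.26, -0.55 to 0.04). Cmpk2 stood at 8.17, 6.48 and 14.1 CPM (WD 0.78). Here the WD library stood alone above the other two. In macrophage/monocyte-like cells Rsad2 was at 201, 215 and 332 CPM (WD 0.73, 0.67 to 0.78), and in T cell-like cells at 23.5, 24.1 and 68.9 CPM (1.55, 0.95 to 2.18). Rsad2, Ifit1, Ifit2 and Rtp4 were at least 1.5-fold higher in the WD library in all 5 classes. That did not hold under every setting in dendritic cell-like cells, where Rsad2 had a log2 ratio of -0.23 with cells thinned to 1000 UMIs, and Ifit1 one of -0.24 in cells with at most 2 macrophage/monocyte markers.

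Tetherin, encoded by Bst2, ties budding virus to the cell surface. It was at 80.7, 94.8 and 130 CPM in B cell-like cells of the control, HHcy-labelled and WD libraries (WD 0.69, 0.58 to 0.79) and at 301, 374 and 485 CPM in macrophage/monocyte-like cells (WD 0.69, 0.64 to 0.73). The WD ratio was the same to 2 decimals in both classes although the levels were not. Isg20, an RNA exonuclease, was about equally high in both treated libraries in B cell-like cells, at 8.39, 17.3 and 17.5 CPM (WD 1.06, 0.74 to 1.38; HHcy 1.04, 0.78 to 1.31). Isg20 in macrophage/monocyte-like cells was highest in the library labelled HHcy, at 18.4, 29.0 and 23.5 CPM.

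The transcription factors differed among themselves. Irf7, the induced factor that amplifies interferon production, stood at 18.5, 31.3 and 39.8 CPM in B cell-like cells (WD 1.11, 0.89 to 1.32; HHcy 0.76, 0.57 to 0.94) and at 53.4, 109 and 113 CPM in dendritic cell-like cells (WD 1.08, HHcy 1.03). Its level in macrophage/monocyte-like cells was 164, 170 and 191 CPM (WD 0.22, 0.16 to 0.29). Of the ISGF3 subunits, Irf9 had WD log2 ratios of 0.16 in B cell-like and -0.01 in macrophage/monocyte-like cells, and Stat2 0.19 and 0.04. Stat2 was lower in neutrophil-like cells of the WD library, at 41.8, 43.3 and 28.0 CPM (WD -0.58, -1.15 to -0.01). Neither subunit was 1.5-fold higher or 1.5-fold lower in WD in any of the 5 classes.

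**Figure D2:**
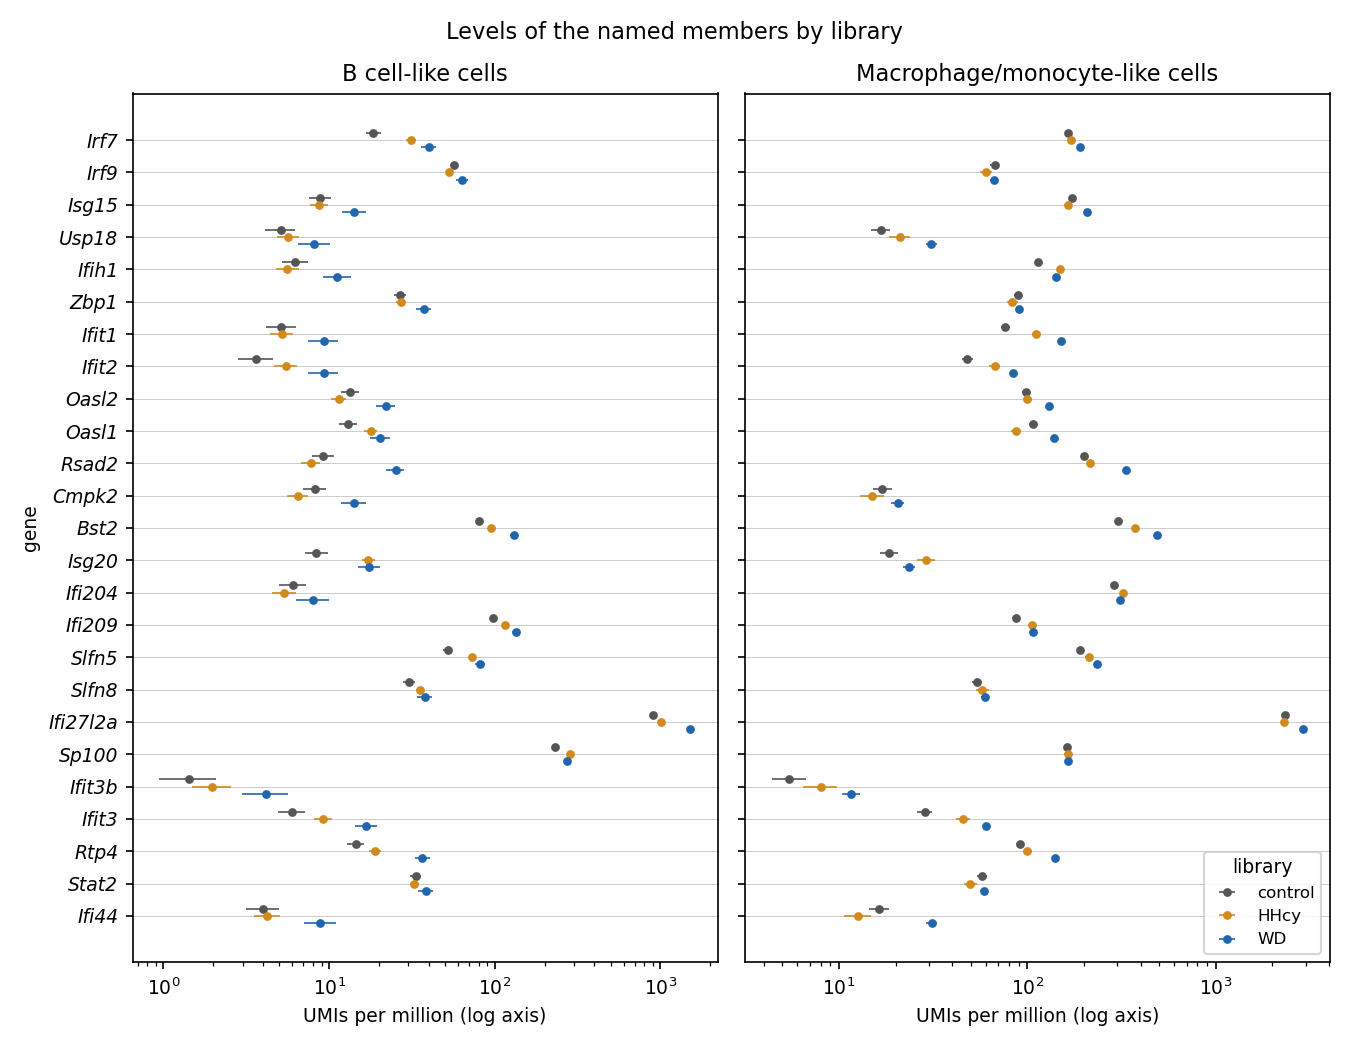
CPM (log x axis) of the 25 genes chosen by the naming rule in B cell-like (left) and macrophage/monocyte-like cells (right), 1 point per library with its exact Poisson interval. In B cell-like cells Rsad2 stands at 25.2 CPM in the WD library against 9.23 in the control, while Irf9 and Sp100 differ little.

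Isg15, a ubiquitin-like modifier, and Usp18, the protease that removes it and dampens the receptor, differed from the control by unlike amounts in one class. In B cell-like cells Isg15 was at 8.81, 8.68 and 14.2 CPM (WD 0.69, 0.35 to 1.02) and Usp18 at 5.10, 5.67 and 8.15 CPM (0.68, 0.23 to 1.12), though with cells thinned to 1000 UMIs the ratio of Usp18 was -0.01. Isg15 in macrophage/monocyte-like cells was at 172, 164 and 208 CPM (0.27) and Usp18 at 16.7, 21.0 and 30.8 CPM (0.89, 0.69 to 1.09), so Usp18 but not Isg15 passed 1.5-fold there.

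Among the cytoplasmic sensors, Ifih1, which detects long double-stranded RNA, stood at 6.26, 5.6 and 11.2 CPM in B cell-like cells (WD 0.84, 0.45 to 1.23). Zbp1, a sensor of Z-form nucleic acid, stood at 26.8, 27.1 and 37.3 CPM there (0.48), and at 89.2, 83.3 and 89.9 CPM in macrophage/monocyte-like cells (0.01, -0.08 to 0.10). Of the 4 sensors, 1 passed 1.5-fold in B cell-like cells, none in macrophage/monocyte-like cells and 3 in dendritic cell-like cells, where 6.00%, 5.74% and 6.77% of all genes did. Some members of the OAS family make the messenger that activates RNase L. Over the same background the family had 3 of 5 past 1.5-fold in B cell-like and 3 of 5 in dendritic cell-like cells. None passed in macrophage/monocyte-like cells. Oas3 (9.45, 12.4 and 20.1 CPM; WD 1.09) led the family in B cell-like cells. Oasl2 stood at 13.4, 11.4 and 21.9 CPM there (0.71) and at 98.2, 100.0 and 130 CPM in macrophage/monocyte-like cells (0.40, 0.32 to 0.49).

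The PYHIN genes, relatives of the DNA sensor Aim2, gave 2 of 5 past 1.5-fold in B cell-like, 1 in macrophage/monocyte-like and 3 in dendritic cell-like cells (background 6.00%, 5.74% and 6.77%). Ifi204 was high and nearly level in macrophage/monocyte-like cells, at 287, 322 and 309 CPM (WD 0.11). In B cell-like cells Ifi213 was at 26.2, 48.2 and 49.6 CPM, equally high in both treated libraries (WD 0.92, HHcy 0.88). Of the Schlafen genes, growth regulators of lymphocytes, Slfn5 stood at 52.0, 72.7 and 81.1 CPM in B cell-like cells (WD 0.64) and Slfn8 at 30.3, 35.4 and 37.8 (0.32).

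Ifi27l2a, a small membrane protein gene, was the most abundant gene of the list in every class and made up 43.4% of the list's UMIs in control B cell-like cells and 40.7% in control macrophage/monocyte-like cells. It stood at 906, 1006 and 1505 CPM in B cell-like cells (WD 0.73, 0.70 to 0.76) and at 2319, 2296 and 2892 CPM in macrophage/monocyte-like cells (0.32, 0.30 to 0.34). Rtp4, a Golgi chaperone of receptors, was at 14.4, 19.0 and 36.5 CPM in B cell-like cells (1.34, 1.11 to 1.57), and Ifi44 at 3.98, 4.24 and 8.87 CPM (1.16, 0.69 to 1.62). Ifi44 in macrophage/monocyte-like cells was at 16.4, 12.5 and 31.1 CPM (WD 0.93), lowest in the library labelled HHcy. In T cell-like cells Ifi44 had 0, 18 and 18 UMIs. Against a floor of 3 UMIs in the control that is at least 5.67-fold higher in the WD library and at least 3.66-fold higher in the library labelled HHcy. Sp100, a nuclear body protein, was nearly level at 162, 164 and 164 CPM in macrophage/monocyte-like cells.

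Of the list, 37 genes had at least 30 UMIs in all 5 classes. Among them 20 had a WD ratio above 0 in every class, against 8.75% of the 7322 genes measured alike. At least 1.5-fold higher in 3 or more classes were 12 (background 0.983%), and in no class 10 (background 84.9%). The map of all genes by class and subset shows the IFIT genes, Rsad2 and Rtp4 as the rows that are dark across most columns, and Irf9, Stat2, Parp14, Trim30a and Sp100 as rows that are pale across nearly all of them.

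**Figure D3:**
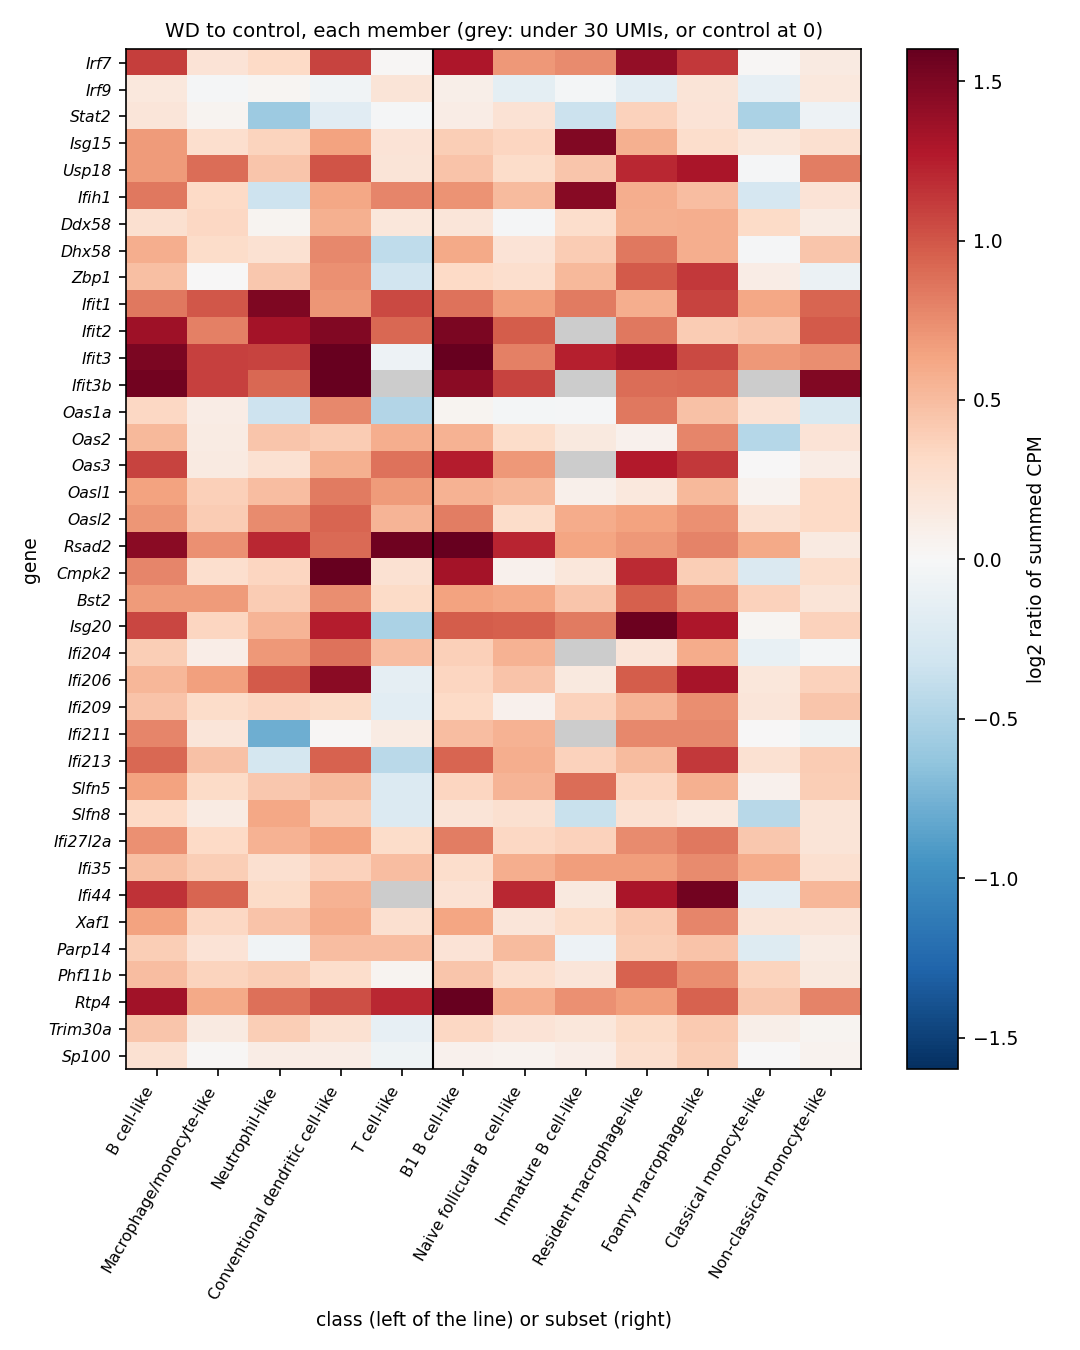
Log2 ratio of WD to control for each of the 38 genes (rows) in 5 classes and 7 subsets (columns), red for higher in WD, blue for lower, colours limited at 1.6 either way, grey for under 30 UMIs or a control at 0. Resident and foamy macrophage-like columns are darker than the 2 monocyte-like columns, where the medians are 0.09 and 0.22.

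Among the B cell subsets, B1 B cell-like cells (an innate-like lineage that secretes natural antibody; 1117 control and 470 WD cells) had a WD median of 0.52, with 17 of 38 at least 1.5-fold higher (background 4.23%). Their leading gene was Rtp4, at 8.73, 9.19 and 31.6 CPM (1.85). Ifit3 (5.13, 7.28 and 16.3 CPM, WD 1.67) and Rsad2 (7.77, 6.08 and 24.4 CPM, WD 1.65) came next. The library labelled HHcy stood near the control for Rtp4 and below it for Rsad2. Naive follicular B cell-like cells (698 and 479 cells) had a median of 0.48 and 10 of 38 higher (background 7.12%), led by Rsad2 at 11.4, 8.23 and 26.6 CPM (1.22). Immature B cell-like cells (269 and 222 cells) had a median of 0.36 and 11 of 33 higher (background 6.48%), led by Isg15 at 9.74, 15.5 and 27.2 CPM (1.48, from 14, 16 and 33 UMIs).

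In the library labelled HHcy the same B subsets gave medians of 0.07, -0.10 and -0.32. Immature B cell-like cells of that library had 3 of 33 genes higher and 8 lower, where the background was 6.84% and 7.98%. The summed level of the list differed between subsets of the control itself, from 1596 CPM in B1 B cell-like to 2849 in naive follicular and 4311 in immature B cell-like cells.

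Among the macrophage subsets the ratio was larger in macrophages than in monocytes. Resident macrophage-like cells (the Lyve1- and Folr2-expressing adventitial type; 451 control and 566 WD cells) had a WD median of 0.67 with 21 of 38 higher (background 6.11%). Foamy macrophage-like cells (lipid-laden, with Trem2, Gpnmb and Spp1; 390 and 1019 cells) had a median of 0.74 with 23 of 38 higher (background 5.42%). Classical monocyte-like cells (162 and 160 cells) had a median of 0.09 with 4 of 37 higher (background 8.45%), and non-classical monocyte-like cells (677 and 538 cells) 0.22 with 6 of 38 higher (background 5.88%). The class value of 0.32 lies between these.

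Irf7 shows the split. It stood at 54.5, 55.4 and 144 CPM in resident macrophage-like cells (WD 1.40) and at 64.0, 142 and 140 CPM in foamy macrophage-like cells (1.13). In classical and non-classical monocyte-like cells, which carried the most Irf7 in the control, it was at 281, 237 and 285 CPM (0.02) and 281, 288 and 310 CPM (0.14). The WD level of both macrophage subsets stayed below that of the monocyte subsets.

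Zbp1, level in the class as a whole, was at 27.3, 31.5 and 53.9 CPM in resident (0.98) and 33.7, 37.5 and 73.7 CPM in foamy macrophage-like cells (1.13), against 149, 133 and 140 CPM in non-classical monocyte-like cells (-0.09). Ifit3 was past 1.5-fold in all 7 subsets, from 0.69 in classical monocyte-like (22.3, 19.0 and 36.0 CPM) to 1.67 in B1 B cell-like cells. Stat2 had its lowest subset ratio in classical monocyte-like cells, at 79.7, 52.8 and 56.2 CPM (-0.50).

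Of the macrophage subsets, foamy macrophage-like cells had the highest median in the library labelled HHcy, at 0.45, with 14 of 38 higher (background 8.35%). There Ifit1 stood at 78.8, 215 and 167 CPM and Ifit3 at 30.5, 93.3 and 63.5 CPM, highest in that library. Its medians in resident, classical and non-classical cells were 0.02, -0.24 and 0.12. In classical monocyte-like cells no gene was 1.5-fold higher and 3 were lower (background 8.63% and 11.8%). Non-classical monocyte-like cells had 6 of 38 higher and none lower (background 5.59% and 6.01%). Resident macrophage-like cells had 2 of 38 higher and none lower (background 6.48% and 8.80%). The foamy values of that library rest on 194 cells.

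At the finest level, 18 clusters or sub-clusters had at least 50 cells in both the control and the WD library. The WD median of the list was above 0 in all 18, from 0.09 to 0.96, and the interval of the summed ratio lay above 0 in 17. The exception was neutrophil-like cluster 19, led by the granule genes Camp, Ngp and Ltf, with a summed log2 ratio of 0.04 (-0.06 to 0.15). The largest values were those of macrophage sub-cluster 3, which is foamy macrophage-like, with a median of 0.96, 30 of 38 genes at least 1.5-fold higher (background 6.60%) and a summed level of 3427 CPM in the control and 6320 in WD, and of dendritic cell-like cluster 14, led by Xcr1 and Clec9a, with 0.92 and 26 of 37 (background 6.53%). For the library labelled HHcy, 12 of 19 medians lay above 0, from -0.52 to 0.49.

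Cells of clusters left unnamed or set aside (431 control, 530 HHcy and 428 WD cells) are a mixture, led among others by plasma cell genes such as Jchain, granule genes such as Mpo and cycling genes such as Top2a. Pooled, they had a WD median of 0.82 (0.41 to 1.23), with 27 of 38 genes at least 1.5-fold higher and none lower (background 10.2% and 8.60%), above the median of each named class. The library labelled HHcy had a median of -0.21 there, with 3 higher and 8 lower (background 5.21% and 19.3%). The libraries differ in the mix of these clusters, and its part in the values was not tested.

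**Figure D4:**
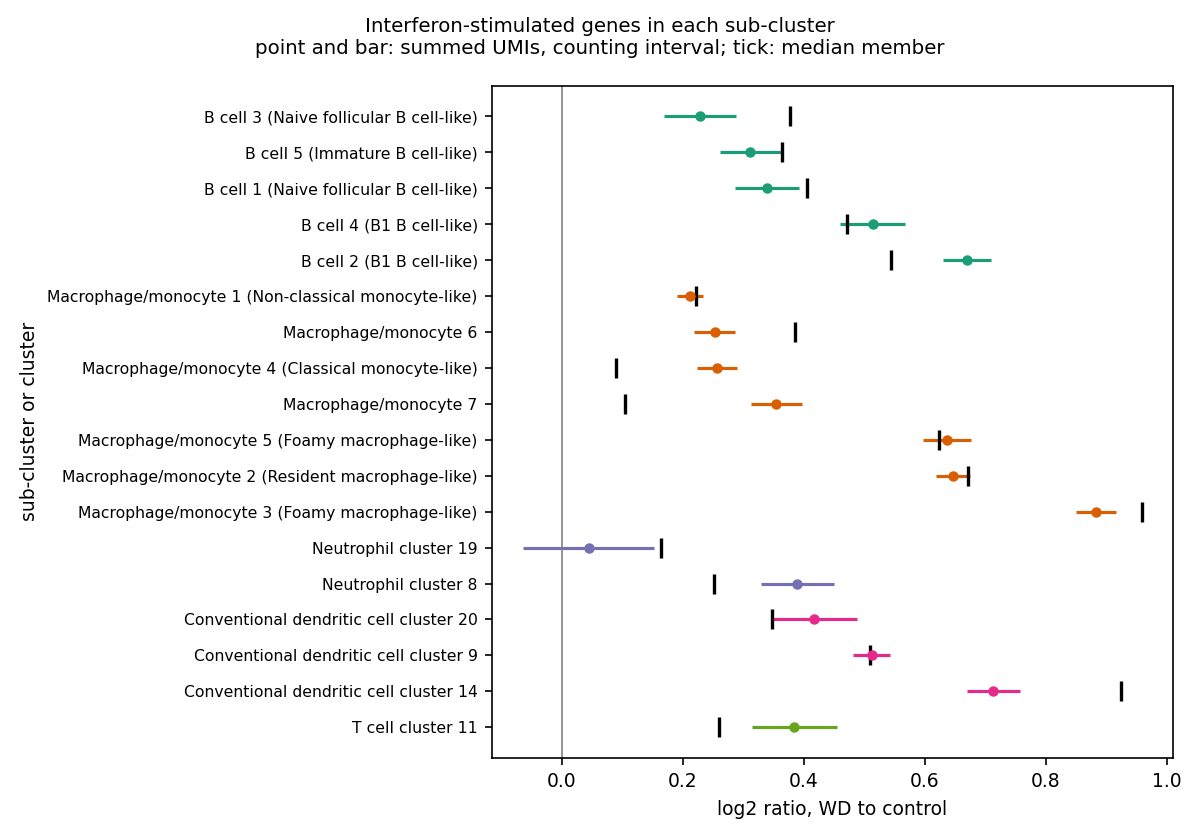
Log2 ratio of WD to control for the summed UMIs of the list in each of 18 clusters or sub-clusters (point, with its exact interval) and for the median gene (black tick). All 18 ticks lie above 0 and all intervals but that of neutrophil cluster 19 (0.04) do so too.

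Since subsets differ in level and in share, the mix of subsets enters each class value. With the sub-cluster mix of the control given to both libraries, the WD median was 0.49 in B cell-like, 0.38 in macrophage/monocyte-like, 0.27 in neutrophil-like, 0.64 in dendritic cell-like and 0.22 in T cell-like cells. With the same mix the medians of the library labelled HHcy were -0.04, 0.05, 0.20, 0.14 and 0.02. The neutrophil-like value of the library labelled HHcy differed most with the mix, 0.50 without and 0.20 with it. Cluster 8, led by G0s2, Retnlg and Cxcr2, held 105 control, 336 HHcy and 230 WD cells, and within it the list's median log2 ratio was 0.49 in the library labelled HHcy and 0.25 in WD.

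In neutrophil-like cells 11 of the 38 genes were higher in WD than in the library labelled HHcy. The median log2 ratio of WD to that library was -0.19 over the list and 0.14 over all genes. At least 1.5-fold, 1 gene of the list was higher in WD and 5 were lower (background 15.6% and 5.05%). Of the IFIT family, Ifit2 stood at 9.76, 68.0 and 24.6 CPM (HHcy 2.80, 2.03 to 3.70; WD 1.33, 0.44 to 2.32), from 14 UMIs in the control. Ifit3 stood at 40.4, 167 and 85.8 CPM (2.04 and 1.09), and Ifit1 at 68.3, 243 and 192 CPM (1.83 and 1.49). Rsad2 was nearly equal in both treated libraries, at 165, 397 and 380 CPM (1.27 and 1.20). Isg20 was higher mainly in the library labelled HHcy, at 66.2, 183 and 96.1 CPM (1.46 and 0.54). Ifi211 was the gene lower in WD, at 50.2, 37.6 and 29.2 CPM (WD -0.78, -1.33 to -0.24).

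To ask whether the class differences lay in all cells or in a few, each cell was thinned to 2000 UMIs and the UMIs of the 38 genes were counted per cell. Shallower cells were left out: 23 control, 11 HHcy and 10 WD B cell-like cells, 116, 45 and 117 macrophage/monocyte-like, 14, 24 and 31 neutrophil-like, 9, 11 and 7 dendritic cell-like, and 21, 10 and 19 T cell-like cells. The mean in B cell-like cells was 4.64 in control, 4.92 in HHcy-labelled and 6.91 in WD cells, and in macrophage/monocyte-like cells 11.8, 11.8 and 15.1. Neutrophil-like cells gave 9.11, 15.2 and 15.1, dendritic cell-like cells 6.34, 6.79 and 9.10, and T cell-like cells 5.76, 5.85 and 7.72.

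In B cell-like and macrophage/monocyte-like cells the distribution lay higher in WD at its low end too. The 25th percentile, the median and the 90th percentile were 2, 3 and 10 UMIs in control B cell-like cells and 3, 5 and 14 in WD. By subset the control and WD medians were 3 and 4 in B1, 4 and 5 in naive follicular and 7 and 10 in immature B cell-like cells. The libraries differ in the mix of these subsets, and its part in the class percentiles was not tested. Macrophage/monocyte-like cells had 5, 10 and 23 against 8, 13 and 28. Their control and WD 25th percentiles by subset were 5 and 9 in resident and 3 and 6 in foamy macrophage-like cells. They were 11 and 15 in classical but 7 and 7 in non-classical monocyte-like cells. The mix of these subsets differs between libraries too, and its part was not tested. When the 5% of cells with the most list UMIs were dropped from each library, the WD to control ratio of means went from 1.49 to 1.54 in B cell-like, stayed at 1.28 in macrophage/monocyte-like, and went from 1.65 to 1.68 in neutrophil-like, 1.44 to 1.42 in dendritic cell-like and 1.34 to 1.29 in T cell-like cells. The difference was thus as large, or nearly so, without the highest cells. In neutrophil-like cells the class ratio exceeded those of clusters 8 (1.36 and 1.37) and 19 (0.875 and 0.98). Cluster 19 was thus not higher in WD by this mean. The libraries differ in the mix of these clusters, and its part in the class ratio of means was not tested. At the 5th percentile neutrophil-like cells had 0 UMIs in both libraries and dendritic cell-like cells 1 in both.

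High cells were also more frequent. The share of cells above the 95th percentile of control cells (over 14 UMIs) was 4.20% in control B cell-like cells, 3.54% in the library labelled HHcy and 9.86% in WD (8.24 to 11.7, exact Clopper-Pearson). The same share of macrophage/monocyte-like cells (over 29 UMIs) was 4.94%, 5.25% and 8.69% (7.61 to 9.87). Without Ifi27l2a the WD shares were 9.04% and 8.33%. Breadth differed as well: 5 or more distinct genes of the list were seen in 19.3%, 20.9% and 32.7% of B cell-like cells and 60.7%, 58.9% and 71.8% of macrophage/monocyte-like cells.

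**Figure D5:**
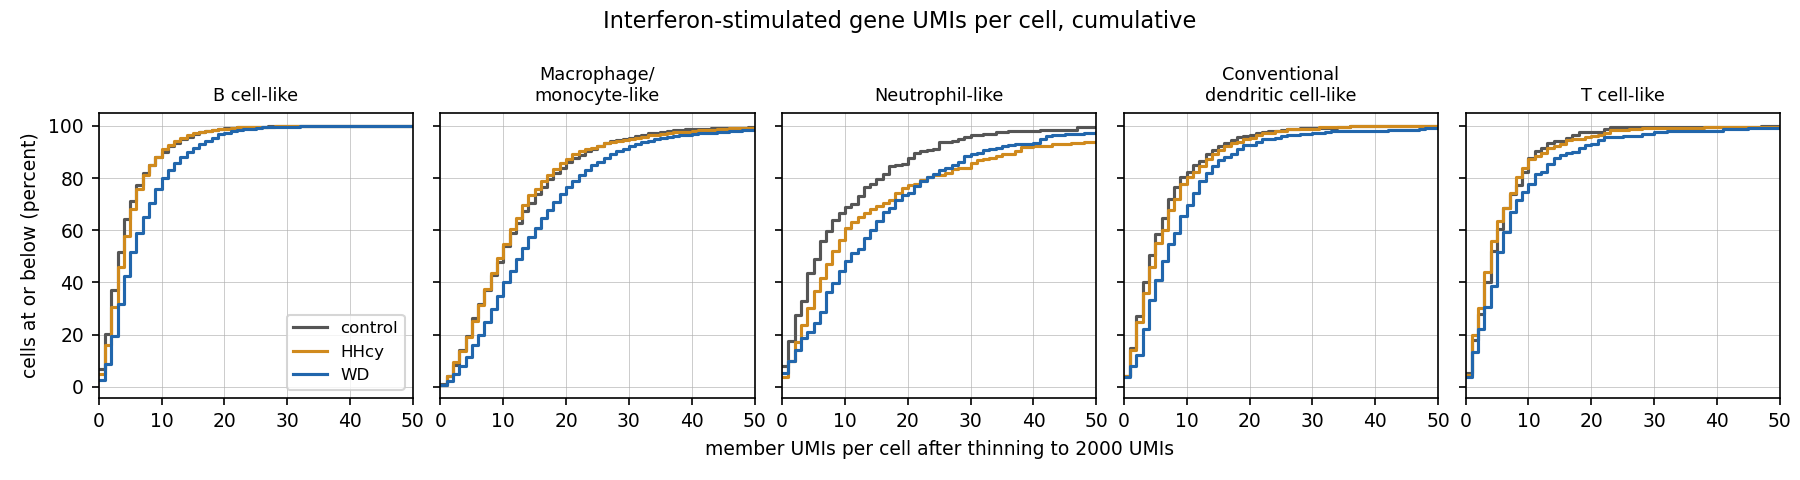
Cumulative percent of cells (y axis) by UMIs of the 38 genes per cell after thinning to 2000 UMIs (x axis), 1 panel per class and 1 line per library. The WD line lies right of the control line along most of its length, with medians of 5 against 3 UMIs in B cell-like and 13 against 10 in macrophage/monocyte-like cells; in neutrophil-like cells the library labelled HHcy lies right of the control as well.

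Neutrophil-like cells of the library labelled HHcy differed from the other cases in their spread. Their median was 8 UMIs against 6 in the control and 11 in WD, while the 99th percentile was 86.5 against 46.7 and 71.8, and 26.7% of the UMIs lay in the top 5% of cells against 21.9% and 20.6%. The share of cells over 28 UMIs was 4.85% in the control, 16.2% (12.9 to 19.9) in that library and 13.9% (10.1 to 18.5) in WD. With nearly equal means, the 2 treated libraries thus had unlike shapes.

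The pattern by cell differed between subsets. The thinned means were 3.25, 3.2 and 4.94 in B1 B cell-like cells, 11.1, 11.6 and 17.2 in resident and 8.38, 10.4 and 13.9 in foamy macrophage-like cells. The WD to control ratio of means with and without the top 5% of cells was 1.52 and 1.57, 1.55 and 1.61, and 1.66 and 1.65. Naive follicular B cell-like cells had 1.21 and 1.23, and immature B cell-like cells 1.34 and 1.36. In classical monocyte-like cells it was 1.13 and 1.16, and the share above the control's 95th percentile was 4.40% in the control and 3.21% in WD, and the 90th percentile was 32 against 30.5 UMIs. In non-classical monocyte-like cells the ratios were 1.11 and 1.11, and the shares 4.33% and 5%. Of classical monocyte-like cells 7 of 159 control and 5 of 156 WD cells were that high (WD share 1.05% to 7.32%). Of non-classical ones 27 of 624 and 24 of 480 were (WD share 3.23% to 7.35%). In both monocyte-like subsets the WD interval thus held the control share, unlike in the class as a whole.

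Detection of single genes varied widely at this depth. A UMI of Ifi27l2a was present in 67.7%, 72.6% and 81.6% of thinned B cell-like cells (90.9%, 92.9% and 95.5% at full depth), one of Sp100 in 39.2%, 43.7% and 43.1%, and one of Bst2 in 15.4%, 16.2% and 23.7%. A UMI of Rsad2 was present in 1.66%, 1.33% and 3.53% of B cell-like and 16.4%, 16.5% and 24.0% of macrophage/monocyte-like cells. No class in these libraries lacks the list's genes, so the share that free RNA alone would give could not be read from one.

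Genes of other cell types differed between libraries in the same cells. In B cell-like cells the 12 macrophage/monocyte markers summed to 255, 301 and 416 CPM, 12 of 12 higher in WD than in the control and none at 0. The 8 fibroblast markers summed to 7.06, 11 and 31.1 CPM, and their part in the WD values was not tested. In dendritic cell-like cells the macrophage/monocyte markers summed to 2460, 2499 and 3867 CPM, 12 of 12 higher in WD. Among B cell-like cells with at most 2 detected macrophage/monocyte markers the WD median was 0.72 with 22 of 38 at least 1.5-fold higher. In all B cell-like cells these values were 0.66 and 22 of 38. The limit kept 1698 of 2189 control, 2731 of 3626 HHcy and 714 of 1227 WD cells, so unequal shares. Such cells may still hold 2 of the markers, and the part of the macrophage/monocyte markers in the WD values was not tested. In dendritic cell-like cells that limit kept only 123, 72 and 56 cells. The median there was 0.56, with 17 of 34 higher, but Ifi27l2a had a log2 ratio of -0.01 and Ifit1 one of -0.24, so these 2 genes were not higher in WD among such dendritic cell-like cells. The share of all genes past 1.5-fold was not computed under this limit on markers.

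In macrophage/monocyte-like cells the 10 B cell markers ran the other way, at 128, 186 and 79.0 CPM, with 0 of 10 higher in WD. Neutrophil markers in dendritic cell-like cells were at 309, 1872 and 469 CPM and in B cell-like cells at 82.6, 219 and 128 CPM, highest in the library labelled HHcy. The part of these markers in the HHcy values was not tested.

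Genes of the pathway upstream of the list mostly lay near their control level. Of 19 type I interferon ligand genes only Ifnb1, interferon beta, had at least 30 UMIs over the 3 libraries in any class, and it was the exception. Macrophage/monocyte-like cells held it at 46.0, 62.3 and 69.7 CPM (779, 741 and 2004 UMIs; WD 0.60, 0.48 to 0.72; HHcy 0.44, 0.29 to 0.58). In dendritic cell-like cells it was 15.9, 7.68 and 22.1 CPM, highest in WD and lowest in the library labelled HHcy. Interferon receptor genes had a WD median of -0.01 in B cell-like and -0.03 in macrophage/monocyte-like cells and none of them past 1.5-fold. The 13 signalling genes had medians of 0.06 and -0.13 and none past 1.5-fold.

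Genes of neighbouring programmes were intermediate. Over 16 measured interferon-gamma-induced GTPases, vacuole-attacking proteins of the Gbp and Irg families, the WD median was 0.39 in B cell-like and 0.22 in macrophage/monocyte-like cells with 2 of 16 past 1.5-fold higher in each, where 6.00% and 5.74% of all genes were. In neutrophil-like cells of the library labelled HHcy 7 of 12 were (background 5.40%), with a median of 0.84. There Gbp2 stood at 43.2, 166 and 64.1 CPM and Gbp7 at 25.1, 61.8 and 47.5 CPM, both highest in that library. A further list of interferon-induced genes outside the 40 had WD medians of 0.32 in B cell-like (5 of 39 higher), 0.19 in macrophage/monocyte-like (5 of 41) and 0.41 in dendritic cell-like cells (13 of 41), where the background was 6.00%, 5.74% and 6.77%. Its most abundant genes differed little in macrophage/monocyte-like cells of the WD library: Ly6e, a surface protein gene, had a log2 ratio of -0.08, the antiviral membrane protein gene Ifitm3 0.11 and the chemokine gene Cxcl10 0.28. In dendritic cell-like cells Ifitm3 stood at 1162, 1822 and 1912 CPM, high in both treated libraries (WD 0.72, HHcy 0.65).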

How the data were processed

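The deposited matrices hold UMI counts per gene and cell barcode, made by the authors with Cell Ranger: version 4.0.0 per the file headers, version 2.2.0 and mm10 per the submitters' processing notes. From these counts cells with at least 200 genes and at most 10% mitochondrial UMIs were kept. Barcodes reaching the marker limits of 2 or more lineages (5 of 10 B, 5 of 10 T, 8 of 12 macrophage/monocyte, 10 if the neutrophil limit is reached, 8 of 10 neutrophil, 4 fibroblast, 3 endothelial or 3 muscle markers) were left out as doublets; no doublet caller was run. The 3 libraries were clustered together on 2000 variable genes without the list's genes (30 components, 20 neighbours, Leiden resolution 1.0, seed 1; 0.5 for sub-clusters of B cell-like and macrophage/monocyte-like cells). A cluster was named from at least 3 markers present in 25% of its cells, a score of at least 0.5 and an own marker among its 50 leading genes. The marker limits, the minimum score, the rule of 50 genes, the setting aside of 229 B cell-like cells led by macrophage genes and the counting of subset markers as own were chosen after seeing the data; the cells set aside and 1160 cells of unnamed clusters were described only as a pool. Names rebuilt this way may differ from the study's.

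UMIs were summed per library and class and scaled to the class total. Ratios carry an exact conditional binomial interval, levels an exact Poisson one, shares a Clopper-Pearson one. Called means at least 1.5-fold; genes with at least 30 UMIs over the 3 libraries of a class enter medians and counts. The genes named were the 2 with most UMIs of each role group and the 5 largest and 3 smallest WD ratios in B cell-like and in macrophage/monocyte-like cells. Other genes named with values in other classes or subsets were chosen after their values were seen. In bulk sums over a class, more cells with a transcript and more transcript per cell cannot be told apart; the thinned cells address this. The listed genes and all gene lists were chosen with earlier results of these data known. Total UMIs were 66789257 (control), 105180370 (HHcy) and 93164076 (WD). The scripts were tested on simulated data. Python 3.11.15, numpy 2.4.6, scipy 1.17.1, pandas 2.3.3, scikit-learn 1.9.0, leidenalg 0.10.2, python-igraph 0.11.9, matplotlib 3.10.9 and Biopython 1.88 were used. Alternatives covered filters, doublets, clustering, depth, scaling, cell weighting and subset mix.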

Additional observations from a re-analysis of the deposited data

Results flagged for a closer look

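For 3 genes the difference from the control ran in opposite directions in different classes, at least 1.5-fold each way. Ifi211, a PYHIN gene, had a WD to control log2 ratio of 0.78 in B cell-like cells and -0.78 in neutrophil-like cells. Ifit1 in the library labelled HHcy had a log2 ratio of 1.83 in neutrophil-like and 1.01 in T cell-like cells but -0.72 in dendritic cell-like cells. Slfn8 in that library had 0.71 in neutrophil-like and -0.60 in T cell-like cells. With 1 library per group these differences between classes were not tested. Ifi211 rested on 67 and 60 UMIs in B cell-like and on 72 and 51 UMIs in neutrophil-like cells of the control and WD libraries.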

How the results depend on the processing

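No paired analysis was possible because each group had 1 library, and leaving out a replicate was not possible for the same reason. Over the 13 or 14 alternatives run for each class, the WD medians stayed above 0 in B cell-like (0.49 to 0.72), macrophage/monocyte-like (0.31 to 0.40), neutrophil-like (0.27 to 0.75) and dendritic cell-like cells (0.52 to 0.70), but not in T cell-like cells (-0.07 to 0.64). Counts of genes at least 1.5-fold higher in WD ranged from 16 to 24 in B cell-like and from 9 to 12 in macrophage/monocyte-like cells. The share of all genes past 1.5-fold was not computed for the alternatives. The cause of each change below was not tested, beyond what the alternative itself does. For neutrophil-like cells, keeping barcodes with markers of 2 lineages gave 19 genes for WD and 7 for the library labelled HHcy; giving each cell the same weight gave 24 and 25, with an HHcy median of 0.75; thinning every cell to 1000 UMIs gave 20 of 31 for WD and an HHcy median of 0.91; the control mix of sub-clusters gave 8 genes and a median of 0.20 for HHcy. For T cell-like cells the WD count was 21 with those barcodes kept, 2 of 24 at Leiden resolution 2 and 5 of 16 after thinning, and the HHcy median was 0.11 with those barcodes kept and 0.086 after thinning. Thinning gave 15 of 31 for WD in dendritic cell-like cells. The HHcy count in B cell-like cells was 3 with up to 20% mitochondrial UMIs, with the marker genes of each single cell naming it, and without the top 5% of cells, and 1 with the control mix. The count in macrophage/monocyte-like cells was 1 with barcodes of 2 lineages kept, 4 with median-ratio scaling, 5 with the control mix and 0 without the top 5% of cells. In dendritic cell-like cells it was 3 with each cell weighing the same and 12 of 34 with at most 2 macrophage/monocyte markers, and in T cell-like cells 5 of 28 with that limit. The share of WD cells above the control's 95th percentile was 14.1%, 12.3%, 12.5% and 12% in B cell-like cells with up to 20% mitochondrial UMIs, at least 500 genes, barcodes of 2 lineages kept and no HHcy library. In macrophage/monocyte-like cells it was 10.1%, 10.2% and 10.1% with the first, second and last of these, in dendritic cell-like cells 5.74% with cells named by their own markers and 12% without the HHcy library, and in T cell-like cells 20.3% with at most 2 macrophage/monocyte markers.

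Of 3117 values of single genes, 2715 differed from the reported value by no more than its counting interval. A change of sign was counted only where the reported value was at least 1.5-fold either way, and 4 such values changed sign, all for WD to control. After thinning to 1000 UMIs these were Usp18 in B cell-like cells (-0.014) and Rsad2 in dendritic cell-like cells (-0.23). In dendritic cell-like cells with at most 2 macrophage/monocyte markers they were Ifit1 (-0.24) and Ifi27l2a (-0.014). Sign changes of smaller ratios were not counted. The limit on macrophage/monocyte markers and the clustering without the HHcy library were chosen after seeing the data. Thinning left few UMIs of genes such as Usp18, and counts of single genes in T cell-like and neutrophil-like cells are limited by the number of cells.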
